A study of Mus musculus with 6 samples.

Results

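The 8 genes followed here belong to the ATF4 branch of the stress response, and were measured in wild type and Wrn mutant mouse embryonic fibroblasts. They are Atf4, Atf5, Atf3, Ddit3, Trib3, Chac1, Ddit4 and Herpud1. They were found on the arrays by gene name, Chac1 under its older name 1810008K03Rik. The 8 genes, of 29742 gene names on the array, had 9 probes among 41174, since Trib3 had 2. The genes were picked from what these same arrays had shown, so their own values are a description. No p-value is given for them, and counts of how many were called are printed beside the share of all probes with nothing read from them.

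Primary mouse embryonic fibroblasts are connective tissue cells grown from minced embryos, here from embryos of day 15. They were wild type or Wrn Δhel/Δhel, which carries on both copies of Wrn an in-frame deletion of part of the helicase domain. Wrn is the mouse homologue of the gene mutated in Werner syndrome, a disorder of premature aging. Cells were left untreated, or were exposed to 0.5 mM H2O2 for 1 hour and given 24 hours in fresh medium before the RNA was taken. Each of the 6 two-colour arrays compared a pair of samples, with 2 arrays for each of 3 comparisons. Replicates 1 and 2 set treated wild type cells against untreated wild type cells, another replicates 1 and 2 set treated mutant cells against untreated mutant cells, and replicates 3 and 4 set untreated mutant cells against untreated wild type cells. The study calls its arrays biological replicates. The arrays of a comparison are separate samples by their labels. A p-value or SE of the fit over all arrays measures only the spread between arrays of a comparison, pooled over the 3 comparisons. It also borrows from the spread of the other probes, so it is not the spread of 1 pair of arrays.

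When a cell is starved of amino acids, loaded with unfolded protein or oxidized, kinases phosphorylate the translation factor eIF2alpha. Most protein synthesis then slows, while the transcription factor ATF4 is made in larger amounts from mRNA that is already there. ATF4 switches on genes of amino acid synthesis and uptake, tRNA charging and redox balance, and also ATF3, ATF5 and CHOP (the product of Ddit3), transcription factors that carry the response further and can turn it towards cell death. Trib3 and Chac1 are among the most strongly induced targets of this branch. The arrays measured mRNA, and neither ATF4 protein nor phosphorylated eIF2alpha.

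ATF4 binds DNA as a dimer with a C/EBP protein at a composite element whose core can be written TGATGNAA. The core was searched on both strands in RefSeq promoters of the assembly GRCm38.p6, which run from 250 bases before the start of each gene to 50 bases after it. All 8 members had a promoter there. The core lay in the promoters of 4 of the 8, namely Chac1, Atf3, Herpud1 and Trib3, against 3.97% of all 32851 promoters. The narrower form TGATGCAA, which is contained in the core, lay in 3 of the 8 (Chac1, Atf3 and Herpud1) and in 0.895% of all promoters. Herpud1 also held the ER stress response element II, which 0.0365% of the promoters hold and no other member did. The longer ER stress response element was in none of the members and in 0.119% of all promoters. A match of letters is not a binding site, and a window without a match says nothing of the factor. The 250 bases before the start of the 3 genes with the narrower form are shown, 5′ to 3′, because these genes share the same 8 letters and yet differed on the arrays, with the core in capitals and, in Herpud1, also the second element, which begins 52 bases before the start.
Chac1, chr2:119350992-119351241, plus strand, core 193 bases before the start: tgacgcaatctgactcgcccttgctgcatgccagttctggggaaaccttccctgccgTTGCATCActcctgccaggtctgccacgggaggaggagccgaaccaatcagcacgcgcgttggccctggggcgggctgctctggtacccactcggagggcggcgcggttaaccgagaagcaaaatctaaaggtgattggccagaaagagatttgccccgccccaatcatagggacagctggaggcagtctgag
Atf3, chr1:191183334-191183583, minus strand, core 110 bases before the start: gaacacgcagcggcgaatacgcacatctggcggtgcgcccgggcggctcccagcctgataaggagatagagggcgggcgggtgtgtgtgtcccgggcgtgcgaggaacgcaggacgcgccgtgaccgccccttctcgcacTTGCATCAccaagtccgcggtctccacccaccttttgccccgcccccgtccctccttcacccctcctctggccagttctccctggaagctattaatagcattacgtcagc
Herpud1, chr8:94386179-94386428, plus strand, core 112 bases before the start: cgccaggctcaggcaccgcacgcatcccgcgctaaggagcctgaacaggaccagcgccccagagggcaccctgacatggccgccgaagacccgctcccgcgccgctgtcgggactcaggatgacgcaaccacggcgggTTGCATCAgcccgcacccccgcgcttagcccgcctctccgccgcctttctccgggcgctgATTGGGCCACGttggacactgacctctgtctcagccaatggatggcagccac
In Trib3, the gene with the largest difference between the genotypes among the members, the core lay after the start, 15 bases into the transcript, and the 30 bases around it are shown.
Trib3, chr2:152344028-152344057, minus strand: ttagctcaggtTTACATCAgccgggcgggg

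The value read from each array is the log2 ratio of Cy5 over Cy3, after subtraction of the local background and loess normalization, where 1 stands for a doubling. On the treatment arrays the treated sample carried Cy5 and the untreated one Cy3. No array had its dyes exchanged, so treatment and dye cannot be told apart within an array. On the arrays of untreated cells the sample labels put wild type cells in Cy5, whereas the study's own list of this comparison has the mutant in Cy5, opposite to the labels. The direction of the study's list, mutant over wild type, was taken here, and every sign of that comparison turns if the labels hold. The 4 treatment arrays gave a check that does not use those dyes, as the untreated cells of each genotype were in Cy3 there. Over 8197 probes called between the untreated cells, the mutant minus wild type difference within Cy3 correlated with the direct ratio with r = 0.852, and 91.1% had the same sign, if the genotypes of the treatment arrays are as labelled. These probes share arrays and dyes and are no independent replicates.

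Cy3 stood well above background on 75.8% to 90.0% of the non-control spots of an array and Cy5 on 41.5% to 69.2%. Feature Extraction, Agilent's image software, had marked 0.4% to 8.81% of these spots as outliers on 5 arrays and 22.6% on wild type replicate 2. Marked spots were left out of the fit, and of the members they were 5 of 18 spots on the wild type arrays, 4 of 18 on the mutant arrays and 3 of 18 on the arrays of untreated cells. The 10 fibroblast markers were well above background in Cy3 on every array, with a summed log2 level of 15.38 to 15.67 in untreated wild type and 16 and 16.32 in untreated mutant cells. Of the markers of other cells, 7 of 8 for macrophages, 5 of 6 for skeletal muscle, 1 of 4 for endothelium and 3 of 4 for epithelium were also well above background on every array. No marker was below background on all arrays. The summed macrophage markers in Cy3 were 9.28 to 9.75 in untreated wild type and 9.86 and 10.26 in untreated mutant cells. The muscle markers were 10.98 and 11.56 in treated wild type cells (Cy5) and 11.82 to 12.14 in untreated wild type cells (Cy3). They were 10.96 and 11.02 in treated mutant cells (Cy5) and 12.01 and 12.04 in untreated mutant cells (Cy3). Treatment and dye cannot be told apart in these values. The part of other cell types in the results was not tested, and in bulk RNA fewer cells of a type and less RNA per cell cannot be told apart. The 4 probes of Wrn were dim, with mean log2 intensities of 3.85 to 5.75, and since the sources used here do not say whether they lie in the deleted part, they check nothing.

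After H2O2, Chac1, Trib3 and Ddit3 were higher on both wild type arrays and lower on both mutant arrays than in untreated cells of the same genotype. In untreated cells, 6 of the 8 genes, Trib3, Ddit4, Ddit3, Chac1, Atf5 and Herpud1, were higher in the mutant on both arrays by a log2 ratio above 1. The mRNA of Atf4 itself was not among them, and neither was that of Atf3. In wild type cells 3 of 9 probes were over 2-fold up on both arrays, against 0.814% of all probes. In mutant cells 2 of 9 were over 2-fold down on both arrays, against 1.18%, and between untreated cells 7 of 9 were over 2-fold up in the mutant on both, against 3.45%. Since the members were picked from these comparisons, nothing is read from these counts. The median over the 9 probes, marked spots kept, was 0.71 in wild type, -0.89 in mutant and 2.08 between untreated cells, whereas the median over all probes lay within 0.01 of 0 in each.

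**Figure D1:**
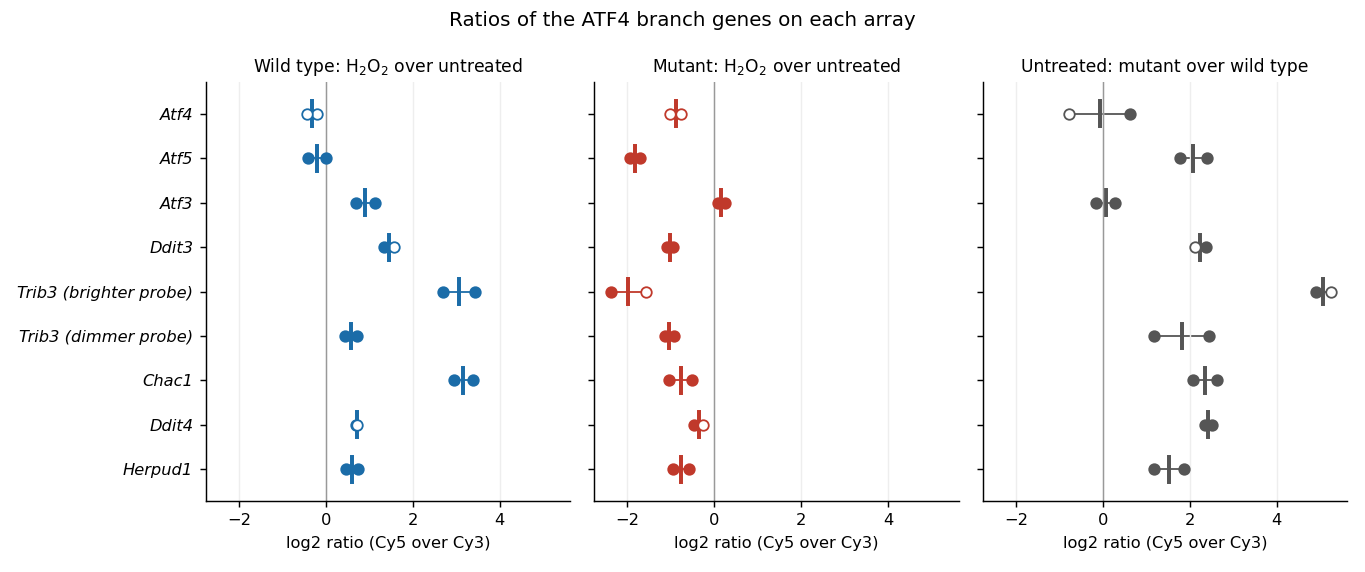
Log2 ratio of Cy5 over Cy3 (x axis) of each probe of the 8 genes (y axis) on the 2 arrays of each comparison; points are arrays, open points are spots marked as outliers, and the short vertical bar is the mean of both arrays. Trib3, Chac1 and Ddit3 lie right of 0 on both wild type arrays and left of 0 on both mutant arrays, and all but Atf3 and Atf4 lie right of 1 in untreated mutant over wild type cells.

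Among the transcription factors, Atf4 is the one the branch is named for. Its log2 ratio after treatment was -0.21 and -0.42 in wild type, against -0.78 and -1.01 in mutant cells. Between untreated cells it was -0.78 and 0.63. Its spot was marked as an outlier on all arrays but the last, so that the fit holds only that value. Its ratios were below 0 on all 4 treatment arrays, and the arrays of untreated cells went opposite ways.

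Atf5, a factor that ATF4 induces and that takes part in the response of mitochondria to unfolded protein, had the ratios -0.41 and 0.01 on the wild type arrays. On the mutant arrays they were -1.94 and -1.71, and the mean was -1.83 (SE 0.21, n = 2 arrays). Between untreated cells they were 1.78 and 2.39, with a mean of 2.08 (SE 0.21, n = 2). Atf5 thus stood near 0 in treated wild type cells, where its mean of -0.20 turned to 0.25 when arrays were only centred on their median, and was lower after treatment on both mutant arrays.

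Atf3, induced early in many forms of stress, was higher after treatment on both wild type arrays, with smaller ratios in the other comparisons. Its ratios were 1.13 and 0.69 on the wild type arrays, 0.24 and 0.08 on the mutant arrays, and -0.15 and 0.29 between untreated cells. The wild type arrays lay above the mutant arrays with no overlap, and the arrays of untreated cells lay on both sides of 0.

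Ddit3 encodes CHOP, which promotes cell death when stress persists. Its ratios were 1.57 (marked) and 1.33 on the wild type arrays, against -1.08 and -0.95 on the mutant arrays. Between untreated cells they were 2.11 (marked) and 2.37. With the marked spots kept, the mean was 1.45 in wild type (SE 0.17), -1.02 in mutant (SE 0.17) and 2.24 between untreated cells (SE 0.17), each over 2 arrays. The mean in mutant cells was only -0.15 when arrays were only centred on their median.

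Of the effectors, Trib3 encodes a pseudokinase that CHOP and ATF4 induce and that binds the kinase AKT and ATF4 itself. The brighter of its probes read 3.42 and 2.70 on the wild type arrays, -2.38 and -1.58 (marked) on the mutant arrays, and 4.90 and 5.24 (marked) between untreated cells. With marked spots kept, the means were 3.06 in wild type (8.36-fold higher after treatment), -1.98 in mutant (3.94-fold lower) and 5.07 between untreated cells (33.6-fold higher in the mutant), each with an SE of 0.26. The mean was the 7th highest of 41174 probes in wild type cells and the 6th highest between untreated cells. The other Trib3 probe gave the same signs and smaller sizes, reading 0.72 and 0.45 in wild type, -1.14 and -0.93 in mutant cells and 1.18 and 2.44 between untreated cells. Its Cy5 signal was not well above background on either mutant array, though it lay above the dimmest spots that were. At its measured value it was 2.05-fold lower in treated mutant cells, and this size is uncertain. Its mean there was -0.50 with another background correction (normexp) and -1.51 by Feature Extraction's own log ratio.

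Chac1 encodes an enzyme that breaks down glutathione, the main thiol of the cell. It read 3.37 and 2.95 on the wild type arrays, -1.03 and -0.50 on the mutant arrays, and 2.64 and 2.07 between untreated cells. Its means were 3.16, -0.77 and 2.35 (SE 0.22 each, n = 2 arrays), and none of its spots was marked. In wild type cells it was the member with the largest ratio, the 5th highest of all probes, and its 3 pairs of arrays did not overlap. Its mean in mutant cells was only -0.13 when arrays were only centred on their median.

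Ddit4 encodes REDD1, which restrains the growth kinase complex mTORC1. It read 0.70 and 0.72 on the wild type arrays, both marked, against -0.46 and -0.25 (marked) on the mutant arrays. Between untreated cells it was 2.51 and 2.35, with a mean of 2.43 (SE 0.18, n = 2). Its value in mutant cells was the least settled of the members, as it went from -0.46 to 0.84 when arrays were only centred on their median.

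Herpud1 encodes a membrane protein of the ER that helps to degrade misfolded proteins. It read 0.73 and 0.46 on the wild type arrays, -0.58 and -0.94 on the mutant arrays, and 1.87 and 1.17 between untreated cells. The means were 0.60, -0.76 and 1.52 (SE 0.22 each, n = 2 arrays), and the value in mutant cells turned to 0.07 with centring on the median alone. Of the members that hold the core letters before their start, Chac1 and Herpud1 were lower on both treated mutant arrays and higher in untreated mutant cells, and Atf3 was neither.

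In the fit by limma, 2 of the 7 member probes that kept a value were called in wild type cells at an adjusted p under 0.05, against 0.836% of all probes. None of 8 was called in mutant cells (0% of all probes), and 7 of 9 were called between untreated cells (19.9% of all probes). These counts rest on the contrasts the genes were picked from, and nothing is read from them.

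Of the 9 probes 3 read at least 1 up on both wild type arrays and at least 0.5 down on both mutant arrays, namely those of Chac1 and Ddit3 and the brighter one of Trib3. Of 41146 probes, 15 did so (0.0365%). Above 0 on both wild type arrays and below 0 on both mutant arrays lay 6 of the 9, against 5.6% of all probes. Marked spots were kept in these counts. The members were picked from these same arrays, so nothing is read from the counts. Chac1 just met the limit of 0.5 with -0.50 on mutant replicate 2. With centring on the median alone, the mutant means of Chac1 and Ddit3 were -0.13 and -0.15. The mutant minus wild type difference of the responses, marked spots kept, was -5.04 for the brighter Trib3 probe, the lowest of 41174 probes, and -3.93 for Chac1, the 2nd lowest. It was -2.47 for Ddit3, the 8th lowest.

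**Figure D2:**
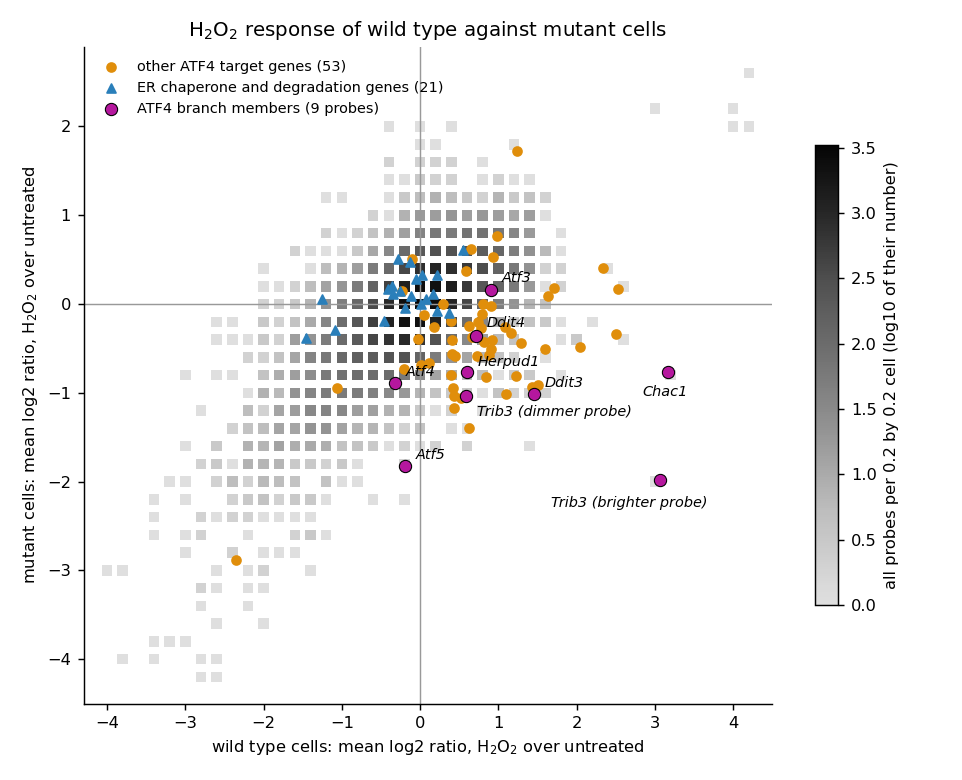
Mean log2 ratio after H2O2 in wild type cells (x axis) against that in mutant cells (y axis), marked spots kept; grey squares count all probes, orange points are the 53 other ATF4 target genes, blue triangles the 21 ER chaperone and degradation genes, and purple points the 9 member probes. Chac1 at 3.16 and -0.77 and the brighter Trib3 probe at 3.06 and -1.98 lie at the lower right, away from the bulk of the probes.

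The level of each channel was next read on its own, after adjustment of the arrays to a common distribution of intensities, and compared only within a dye. Spots marked as outliers were kept in these levels. The Cy5 levels of untreated mutant cells come from the other array set, the arrays of untreated cells, and belong to wild type cells if the sample labels hold. Untreated wild type cells were in Cy3 on both array sets by the direction taken here, and between the sets their mean level differed by -0.72 (the brighter Trib3 probe) to 0.40 (Atf4). An order that includes the untreated mutant cells in Cy5 carries both limits. Within Cy3 of the treatment arrays, the brighter Trib3 probe stood at a log2 level of 5.14 and 5.09 in untreated wild type and of 9.41 and 8.62 in untreated mutant cells. Within Cy5 it stood at 8.56 and 7.79 in treated wild type, at 7.03 and 7.04 in treated mutant, and at 9.71 and 9.22 in untreated mutant cells. Treated wild type and treated mutant cells, which lie within the same array set, did not overlap. The untreated mutant values lay above both in the direction taken here, and would be those of untreated wild type cells by the labels. In treated mutant cells it was lower than in treated wild type cells by 1.14 (a log2 difference).

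Chac1 stood at 6.88 and 6.08 in untreated wild type and at 8.32 and 8.22 in untreated mutant cells within Cy3. Within Cy5 it stood at 10.25 and 9.03 in treated wild type, 7.29 and 7.72 in treated mutant and 9.18 and 8.74 in untreated mutant cells. Treated wild type and untreated mutant cells overlapped, and both lay above treated mutant cells. The treated mutant minus treated wild type difference was -2.14.

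Ddit3 stood at 8.92 and 8.11 in untreated wild type and at 11.20 and 10.74 in untreated mutant cells within Cy3. Within Cy5 it stood at 10.49 and 9.44 in treated wild type, 10.12 and 9.80 in treated mutant, and 10.72 and 10.76 in untreated mutant cells. Without marked spots, where the 10.49 of treated wild type cells drops out, the treated mutant minus treated wild type difference of Ddit3 was 0.51. With marked spots kept, treated cells of the genotypes overlapped for Ddit3, and untreated mutant cells lay above them. Herpud1 had the same order, with 9.74 and 8.49 in treated wild type, 9.39 and 9.02 in treated mutant, and 10.47 and 9.97 in untreated mutant cells within Cy5.

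With marked spots kept, Ddit4 was the one member that was still higher in the mutant after treatment with no overlap. Both of its treated wild type spots and that of mutant replicate 2 were marked, so without marked spots it has no such difference. Within Cy5 it stood at 9.56 and 9.25 in treated wild type, 10.83 and 10.45 in treated mutant, and 11.66 and 11.16 in untreated mutant cells, with no overlap. The treated mutant minus treated wild type difference was 1.23. Atf5 within Cy5 stood at 10.25 and 9.85 in treated wild type, 10.86 and 10.12 in treated mutant, and 12.31 and 12.24 in untreated mutant cells, so that only the untreated mutant cells stood apart.

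Atf3 within Cy5 stood at 7.27 and 7.01 in treated wild type and at 6.41 and 6.51 in treated mutant cells, without overlap. Its 5.43 and 5.98 in untreated mutant cells are not set in an order with these, since its untreated wild type level in Cy3 was also lower on that array set, by a difference of -0.59, and its ratio on the mutant arrays themselves had a mean of only 0.16. Within Cy3 of the treatment arrays its untreated levels overlapped between the genotypes. Atf4 within Cy5 stood at 9.53 and 8.65 in treated wild type, which overlapped both 9.04 and 9.10 in treated mutant and 9.41 and 10.04 in untreated mutant cells, while those last 2 conditions did not overlap. Within Cy3 of the 4 treatment arrays, 8 of the 9 probes stood higher in untreated mutant than in untreated wild type cells with no overlap, all but Atf3, as did 25.5% of all probes. With the Cy3 levels of the arrays of untreated cells added, Atf4 overlapped too, as wild type cells stood at 10.19 on replicate 3. Within Cy5, mutant levels after treatment lay below wild type levels with no overlap for Chac1, the brighter Trib3 probe and Atf3, against 17.1% of all probes, and above them for Ddit4, against 22.2%. The Cy3 difference of Atf4, 0.56, turned to -0.15 relative to the median of all probes when the arrays were not adjusted to each other, and that of Atf3, 0.07, to -0.23.

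**Figure D3:**
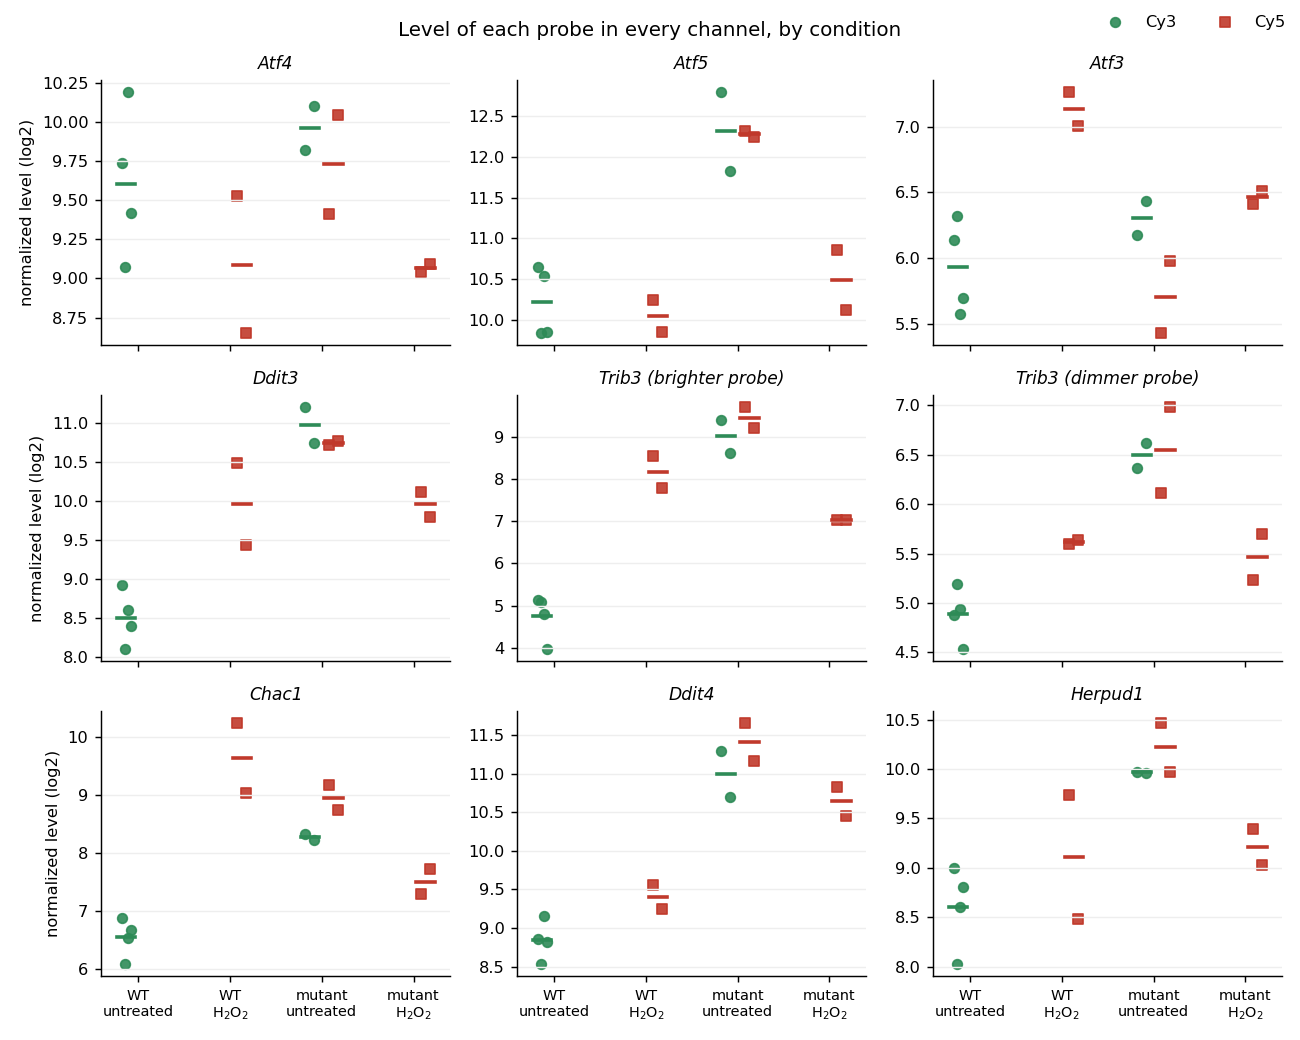
Normalized log2 level (y axis, a scale of its own for each probe) of each of the 9 probes by condition (x axis); every point is a channel of an array, green circles Cy3, red squares Cy5, bars the mean of a dye. In untreated cells all green circles of the mutant stand above all those of wild type for every probe but Atf3 and Atf4, and in Cy5 only Ddit4 stands higher in mutant than in wild type cells after treatment with no overlap.

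The rest of the pathway was read from 9 lists with 113 other genes, all of them on the array, each by its brightest probe. The lists follow the genes' known roles, though they were drawn up with earlier results of these arrays known. Their calls come from the limma fit over all probes, with Benjamini-Hochberg adjustment. Because of how the lists were drawn up, the counts of calls are a description. They are no independent test of the pathway. In wild type cells 9 of the 103 with a value rose and 0 fell, against 0.422% and 0.414% of all probes. Between untreated cells 45 of 111 were higher in the mutant and 2 were lower, against 10.2% and 9.76%. Of the 45 that were higher, 10 were genes of amino acid synthesis, 4 of amino acid transport and 7 of tRNA charging, while 2 were ER degradation genes and 2 were kinase genes.

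In H2O2-treated wild type cells, 4 of the 12 genes of amino acid and one-carbon synthesis rose. They were Cth, which makes cysteine (log2 ratio 2.53, SE 0.19, adjusted p = 0.0181), the mitochondrial folate enzyme Aldh1l2 (2.50, SE 0.20, adjusted p = 0.0181), the serine phosphatase Psph (2.04, SE 0.17, adjusted p = 0.0181) and the folate enzyme Mthfd2 (1.22, SE 0.17, adjusted p = 0.0474). Asparagine synthetase, Asns, read 1.48 and 1.37 (marked), so that its fit held 1 array, and did not pass. The serine enzyme Psat1 read 0.88 and 0.81, both marked. The median of the list was 1.09, against -0.01 over all probes.

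Of 8 amino acid transport genes, Slc7a11, the cystine transporter, rose (1.64, SE 0.26, adjusted p = 0.0485). Its partner Slc3a2 read 1.38 and 1.19 (marked) with an adjusted p of 0.0708. Of 16 other ATF4 targets, 4 rose, namely the lipoprotein receptor Vldlr (2.33, SE 0.18, adjusted p = 0.0181), the stress protein gene Niban1 (1.71, adjusted p = 0.0363), the mitochondrial protease Lonp1 (1.60, adjusted p = 0.0364) and the ER oxidase Ero1a (1.50, adjusted p = 0.0364). Sesn2 read -3.24 (marked) and -1.47 and did not pass. Of 11 tRNA charging genes with a value 0 passed in the limma fit, 5 at an unadjusted p under 0.05, and the median was 0.62. Wars read 1.10 and 0.71 (adjusted p = 0.062), and Gars read 0.15 (marked) and -0.12.

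Of 20 genes of the other arms of the ER stress response, which ATF6 and XBP1 drive, 0 passed in wild type cells, 4 at an unadjusted p under 0.05. The median was -0.12. The main chaperone gene Hspa5 had an adjusted p of 0.598, and Xbp1 read -1.50 and -1.41 (marked), with an adjusted p of 0.0509. None of the 8 eIF2alpha kinase and phosphatase genes passed, 1 at an unadjusted p under 0.05. None of the 16 bZIP partners, the 5 relatives of the members or the 7 genes of mTORC1 control passed either, with 4, 3 and 1 at an unadjusted p under 0.05. Cebpb, a dimer partner of ATF4, read 0.70 and 0.88, both marked, and Cebpg had an adjusted p of 0.166. For wild type cells the share of all probes at an unadjusted p under 0.05 is not given here, and nothing is read from the counts at that threshold. The calls in wild type cells lean on single arrays. Leaving out any 1 of the 4 treatment arrays left none called. Leaving out either array of untreated cells gave more calls, over the lists and over all probes alike.

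In H2O2-treated mutant cells 0 of 112 listed genes were called by limma, as were 0 of 41052 probes, and 32 of the 112 passed an unadjusted p under 0.05, against 12% of all probes. The median was -0.53 for amino acid synthesis, -0.43 for transport, -0.48 for tRNA charging and -0.11 for the other targets, lists whose medians had been above 0 in wild type cells. The relatives of the members and the genes of mTORC1 control had medians above 0 in wild type cells (0.38 and 0.02) and in mutant cells (0.23 and 0.22). Asns read -1.06 and -0.80 (marked), Mthfd2 -0.79 and -0.84, and Psat1 had a mean of -0.82 with its marked spot kept. The ER chaperone list stood at a median of 0.11. When the 2 mutant arrays were fitted alone, 22 listed genes fell and 9 rose, against 6.46% and 5.64% of all probes. Of those that fell, Asns, Phgdh, Shmt2, Slc7a5, Slc6a9, Nars, Sesn2 and Bbc3 had only 1 unmarked array. Their calls in that fit rest on the spread of other probes alone. Among those that fell in that fit were 7 of 14 genes of amino acid synthesis, 3 of 9 of transport and 5 of 13 of tRNA charging, and none of the 21 ER chaperone and degradation genes. The 17 other targets went both ways in that fit. Sesn2, Bbc3, Ero1a and Lonp1 fell, whereas the cell death gene Pmaip1 (1.72), Fgf21 (0.76) and Vegfa (0.62) rose, as did the ER chaperone genes Pdia4 (0.51) and Pdia6 (0.47).

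The mutant minus wild type difference of the responses was tested in the same fit, and 0 of 103 listed genes were called by limma, with 40 of them at an unadjusted p under 0.05, against 5.95% of all probes. In the fit of the 4 treatment arrays alone, 24 listed genes were lower and 4 higher, against 0.777% and 1.16% of all probes. The 24 held 10 of 12 genes of amino acid synthesis, 5 of 8 of transport, 4 of 11 of tRNA charging and 4 of 16 other targets. In that fit Aldh1l2 differed by -2.84 (SE 0.22, adjusted p = 0.000491) and Psph by -2.52 (SE 0.19, adjusted p = 0.000491). Asns differed by -2.54, with only 1 unmarked array in each genotype. Shmt2 and Slc7a5, also among the 24, had only 1 unmarked array in each genotype too. Among the 4 that were higher was Eif2ak3, which encodes the ER-bound eIF2alpha kinase PERK, with 1.02 (SE 0.19, adjusted p = 0.0248). The arrays of untreated cells alone separate that fit from the one over 6 arrays.

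Between untreated cells, 10 of 14 amino acid synthesis genes were higher in the mutant and 0 were lower. The largest ratios were those of Aldh1l2 (3.02, SE 0.20, adjusted p = 0.000592), the serine enzyme Shmt2 (1.74), the proline enzyme Pycr1 (1.65, SE 0.16, adjusted p = 0.0029), the transaminase Gpt2 (1.62, SE 0.18, adjusted p = 0.00268), and Aldh18a1 and Asns (both 1.49, adjusted p = 0.00242 and 0.0104). The ratio of Shmt2 rests on 1 unmarked spot. Psat1, with 0.35 and 0.40, did not pass.

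Of 9 transport genes 4 were higher in untreated mutant cells, the glutamine transporter Slc1a5 (3.54, SE 0.16, adjusted p = 0.000235), Slc7a5 (1.23, adjusted p = 0.0114), the glycine transporter Slc6a9 (0.97, adjusted p = 0.0377) and Slc3a2 (0.93, adjusted p = 0.0239). Slc7a11, which rose in treated wild type cells, was not well above background in the mutant channel of either array of untreated cells. Of 13 tRNA charging genes 7 were higher, led by Wars (1.32, SE 0.18, adjusted p = 0.00464), Sars (1.22), Aars (1.17), Tars (1.14), Yars (1.10) and the tRNA export gene Xpot (1.07). The ratio of Tars rests on 1 unmarked spot, and Gars read -0.56 and 0.56.

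Of 17 other ATF4 targets 11 were higher and 1 was lower. Niban1 (4.33, SE 0.18, adjusted p = 0.000136) and Vldlr (2.57, SE 0.18, adjusted p = 0.000691) led them, followed by the hormone gene Fgf21 (1.74, well above background on only 1 array in each dye), the autophagy gene Map1lc3b (1.50) and Ero1a (1.36). Stc2 was lower (-1.41, SE 0.17, adjusted p = 0.00333), with its mutant channel well above background on 1 of the 2 arrays. Sesn2 read -2.63 and 0.61.

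Upstream of ATF4, 2 of 10 kinase and phosphatase genes were higher in untreated mutant cells, Eif2ak2, which encodes the kinase PKR (0.99, SE 0.15, adjusted p = 0.00653), and Eif2ak3 (0.81, SE 0.16, adjusted p = 0.0147). Eif2ak4, which encodes the amino acid sensor GCN2, had an adjusted p of 0.892. Of 16 bZIP partners and related factors 5 were higher, the stress gene Nupr1 (2.42, SE 0.19, adjusted p = 0.00159), Nfe2l2, which encodes NRF2 (1.34, adjusted p = 0.00597), Cebpa (0.88), Jund (0.84) and Cebpg (0.68). Cebpb read 0.64 and 0.13, both marked.

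The closest relatives of the members did not follow them as a group. Trib2 was higher in untreated mutant cells (1.18, SE 0.20, adjusted p = 0.00871), whereas Trib1 was lower (-1.40, SE 0.18, adjusted p = 0.00364), its mutant channel well above background on 1 of the 2 arrays. Chac2 was called at 0.99 on 1 unmarked spot (adjusted p = 0.0326), and with its marked spot kept it read 0.32 and was not called. Of 20 ER chaperone and degradation genes, 2 were higher, the degradation genes Derl1 (1.06, adjusted p = 0.0145) and Derl2 (0.64, adjusted p = 0.0353), and the median was -0.02. Hspa5 had an adjusted p of 0.585 and Xbp1 read -0.60 and -0.51 (adjusted p = 0.0596). Of 7 genes of mTORC1 control, Sesn1 (1.34, SE 0.16, adjusted p = 0.00495) and Tsc2 (0.83, adjusted p = 0.034) were higher, and Tsc1 was not called (adjusted p = 0.568). In the fit of the arrays of untreated cells alone, 11 listed genes were higher and 1 was lower, against 1.93% and 1.81% of all probes.

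**Figure D4:**
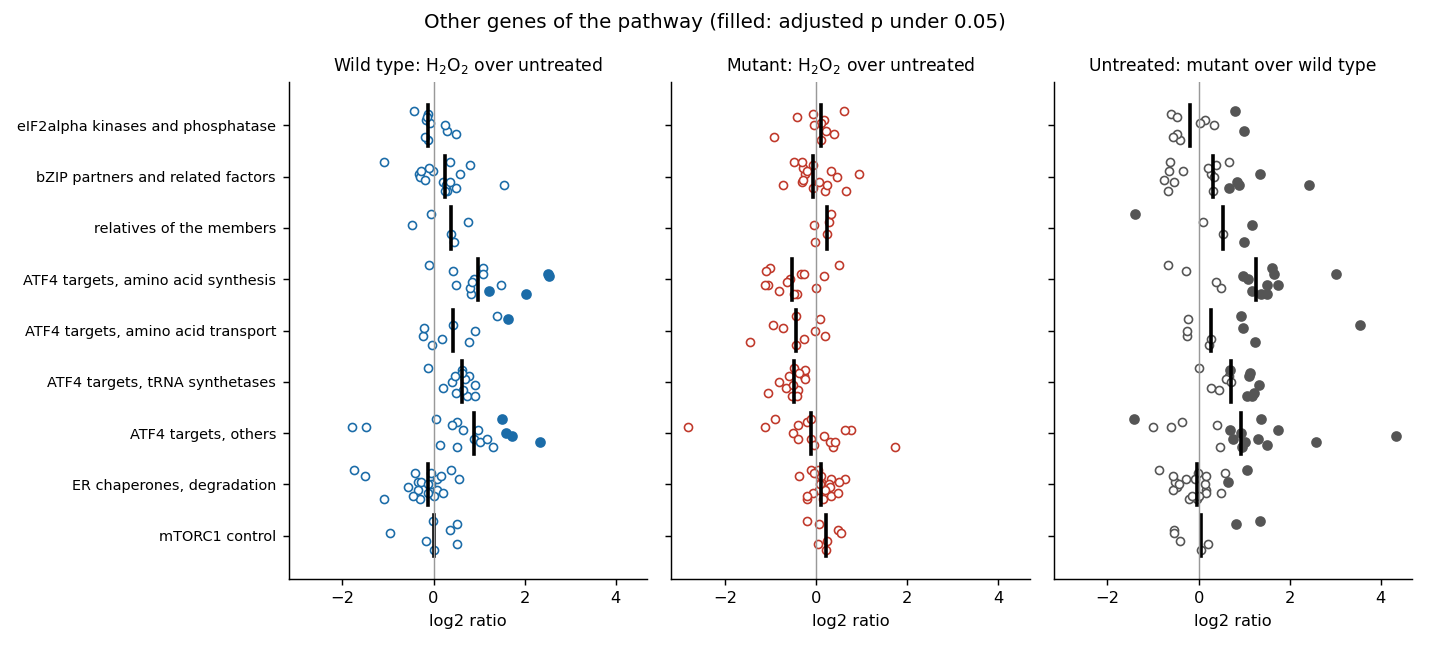
Log2 ratio (x axis) of the 113 other pathway genes by list (y axis) in the 3 comparisons; each point is a gene, filled where its adjusted p was under 0.05, and black bars are list medians. The lists of ATF4 targets lie right of 0 in wild type and untreated mutant cells and at or left of 0 in treated mutant cells, where no gene is filled, while the ER chaperone list lies near 0 in all 3.

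The core letters TGATGNAA were also counted in the promoters of the listed genes. They lay in 5 of 9 tRNA charging genes with a promoter (Gars, Aars, Iars, Tars and Yars), in 3 of 12 of amino acid synthesis (Asns, Pycr1 and Got1), in 2 of 6 of transport (Slc7a11 and Slc1a4), in 2 of 13 other targets (Vldlr and Fgf21) and in 0 of 18 ER chaperone and degradation genes. The share over all promoters was 3.97%. Among the bZIP partners Nupr1 held the core.

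The probes most like 2 of the members were found by the root mean square difference of their 6 log2 ratios, over 10205 probes of named genes with a mean log2 intensity above 6 on every array. Nearest to Ddit3 were Nupr1 (0.25), the pyrophosphatase gene Enpp1 (0.37), Nol12 (0.41), Gpt2 (0.42) and Plekhm3 (0.44). Nearest to the brighter Trib3 probe were the metallothionein gene Mt2 (1.43), Chchd10 (1.50), Niban1 (1.56), Aldh1l2 (1.57) and the metalloprotease gene Mmp11 (1.64). Member probes were left out of this search. The differences are not scaled to the size of the ratios, which were larger for Trib3, so those of Trib3 and Ddit3 are not compared. Nupr1 read 1.54 and 1.11 (marked) on the wild type arrays, -0.64 and -0.81 on the mutant arrays and 2.18 and 2.66 between untreated cells. Mt2 read 1.79 and 2.19, -0.55 and -0.28, and 3.54 and 3.64.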

How the data were processed

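Expression was measured on 6 two-colour Agilent arrays, 2 per comparison. The authors deposited each array's scanner output, with intensity means and local backgrounds of both dyes, Feature Extraction's flags and its own log10 ratio, and per the file headers the software was version 7.5.1. The authors' series table holds log2 ratios after background subtraction and loess. Set against the ratios used here with marked spots kept, each column had r of at least 0.999 and a median of 0.00162 to 0.0178, which shows scale and direction to be those of Cy5 over Cy3. Genome build and aligner do not apply. The labels name total RNA and the study's methods cytoplasmic RNA.

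Log2 ratios were formed here from the intensities in R 4.3.3 by limma 3.58.1 (local background subtracted, loess within arrays). The fit used neither control spots nor outlier-marked spots, kept saturated ones, and averaged the spots of a probe. A single limma model (lmFit, eBayes) covered the 6 arrays, with 1 coefficient per comparison, two-sided, with Benjamini-Hochberg adjustment over the 40303, 41052 and 41099 probes with a value (wild type, mutant, untreated cells) and 3 residual degrees of freedom per probe. Genes were called at an adjusted p under 0.05. Between the 2 arrays of a comparison r was 0.778, 0.624 and 0.541 over probes, and the number of arrays limits the precision. The fit was tested on simulated data. Levels per channel were adjusted between arrays (Aquantile).

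The members, the 9 gene lists and the tests were chosen with earlier results of these data known. From the lists were named the genes called, at most the 6 with the largest ratio per list and comparison, and the first 2 of each list. Of 41174 probes 31034 matched a RefSeq gene of GRCm38.p6 by accession or name. The members' alternatives were outlier spots kept, other background correction, normalization, thresholds and fits, and each array left out. Other software was Python 3.11.15, with matplotlib 3.10.9 for plots and pandas 2.3.3.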

Additional observations from a re-analysis of the deposited data

Results flagged for a closer look

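Of the member probes 6 went one way on both wild type arrays and the opposite way on both mutant arrays after H2O2. The mutant minus wild type difference of the mean log2 ratios, marked spots kept, was -5.04 for the brighter Trib3 probe, -1.62 for the dimmer Trib3 probe, -2.47 for Ddit3, -1.07 for Ddit4, -3.93 for Chac1 and -1.36 for Herpud1. The differences were not tested, since the genes were picked from these arrays. All 6 were above 0 in wild type and below 0 in mutant cells, a pattern that 5.6% of all probes had. Those of Ddit4 and Herpud1 rest on mutant ratios of -0.36 and -0.76, which turned to 0.84 and 0.07 when arrays were only centred on their median. With that centring the mutant ratios of Ddit3 and Chac1 moved to -0.15 and -0.13.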

How the results depend on the processing

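Of the listed genes, 9 were called in wild type cells. Calls over all probes are in brackets. The count was 20 with outlier spots kept (982 of 41174), 21 with normexp (2042 of 40303) and 20 from the authors' series table (997 of 41174). It was 4 with centring on the median without loess (18 of 40303), 48 on the own arrays alone (10688 of 40303) and 20 without dim probes (803 of 21825). It was 0 at the study's thresholds (0 of 40303) and 25 at an adjusted p under 0.1 (2656 of 40303). Leaving out 1 treatment array left none called, and leaving out either array of untreated cells gave more calls, over the lists and over all probes alike. In mutant cells 0 became 10 with centring on the median, with 10 higher and 0 lower, where 2675 of 41052 probes were called. It became 31 on the own arrays alone (4968 of 41052 probes). Leaving out a treatment array left none called, and leaving out either array of untreated cells gave calls, over the lists and over all probes alike. Between untreated cells 47 became 29 with Feature Extraction's own log ratio, 12 on the own arrays alone and 12 at the study's thresholds, and 29 to 62 with 1 array left out, the 29 without either mutant treatment array. The difference of the responses went from 0 to 28 on the 4 treatment arrays alone (782 of 40267). Leaving out 1 treatment array left none called, and leaving out either array of untreated cells gave calls. Where an array was left out, the lone array of its comparison was assumed to vary like the others. The causes were not tested.

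With the replicate number of the titles as a block, 0 genes were called in wild type, 0 in mutant cells and in the difference, and 29 between untreated cells. The numbers do not pair the arrays by any label, and the deviations of replicates 1 and 2 correlated between the genotypes with r = -0.0366 over 29913 probes. Slide and scan date were not run as a block: the treatment arrays were extracted on 1 day and the others on other days, so day and comparison cannot be told apart.

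With Cy5 taken as wild type, as in the sample labels, all 47 calls between untreated cells turned, to 2 higher and 45 lower, and the members read -0.071 (Atf3), -0.63 (Atf4), -2.08 (Atf5), -4.90 and -1.81 (Trib3), -2.37 (Ddit3), -2.43 (Ddit4), -2.35 (Chac1) and -1.52 (Herpud1). Other turned signs were Atf5 in wild type cells, at 0.25 with centring on the median and -0.41 to 0.013 with 1 wild type array left out, turning without replicate 1. In mutant cells, with centring on the median, Ddit4 turned to 0.84 and Herpud1 to 0.065. Others kept their sign there but moved towards 0. Ddit3 went from -1.02 to -0.15 and Chac1 from -0.77 to -0.13. Atf5 went from -1.83 to -0.94 and the brighter Trib3 probe from -2.38 to -1.35. Between untreated cells Atf3 went from -0.15 to 0.29 with 1 array left out, turning without replicate 4, and Atf4 turned to -0.075 with outlier spots kept and to -0.073 in the authors' table. Without adjustment between arrays, the median of all probes shifted by -0.94 in Cy3 and -0.93 in Cy5. Relative to it, untreated mutant minus wild type levels turned to -0.23 for Atf3 and -0.15 for Atf4, and treated ones to -0.25 for Atf5, -0.72 for Ddit3 and -0.61 for Herpud1. With the adjustment but outlier spots kept, treated Ddit3 turned to -0.012.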

Other observations

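Besides Chac1, Trib3 and Ddit3, 12 probes read at least 1 up on both wild type arrays and at least 0.5 down on both mutant arrays, and these were named after their values were seen. Asns, Psph, Mthfd2, Ero1a and Nupr1 belong to the pathway lists. Plagl1, an imprinted zinc finger gene, read 1.22 and 1.59 on the wild type arrays, -1.57 and -1.64 on the mutant arrays and 3.83 and 2.26 between untreated cells. Mmp11 read 1.09 and 1.12, -0.72 and -0.52, and 3.49 and 3.72. Enpp1 read 1.19 and 1.29, -0.67 and -0.77, and 2.57 and 1.87. The others were Zfp235, Vmn1r42, Nol4l and an unnamed transcript, each between 1.11 and 1.74 on the wild type arrays. All 15 probes stood above 0 between untreated cells on both arrays.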
